A study of Mus musculus with 8 samples.

Results

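The cluster that runs from miR-17 to miR-92a, also known as oncomiR-1, had 7 mature miRNAs listed here from the mouse array: mmu-miR-17-5p, mmu-miR-17-3p, mmu-miR-18a-5p, mmu-miR-19a-3p, mmu-miR-19b-3p, mmu-miR-20a-5p and mmu-miR-92a-3p. The species prefix is left out below. They were chosen by name, as the array rows annotated with these miRNAs, out of 1881 mouse miRNAs on the array. Their signals were measured in plasma RNA of 3-month-old female mice of the outbred NMRI stock. IMB mice received imatinib, a tyrosine kinase inhibitor, orally, 100 mg/kg once a day over 9 days. DOX mice received doxorubicin, an anthracycline that damages DNA, as 4 intravenous doses of 3 mg/kg, 1 every other day. CTRL mice received the solvents only. Each array held Cy3-labelled RNA from a 300 µl plasma pool of 3 mice, with 3 pools for IMB, 3 for DOX and 2 for CTRL. The labels call the pools biological replicates, and the spread among animals within a pool was not measured. The comparisons ask whether plasma levels of the cluster differ after each drug and between the drugs.

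The cluster is processed from 1 primary transcript, so its hairpins are made together and each mature strand is then loaded and degraded on its own. It is known as a target of MYC and E2F factors and as a promoter of proliferation and survival in B cells, blood progenitors and many tumours. Its miRNAs recognise messages mainly through the seed, bases 2 to 8. The miR-17 and miR-20a seed represses the cyclin-dependent kinase inhibitor gene Cdkn1a and E2F genes, and the miR-92a seed represses Bcl2l11. Several members are carried in plasma by blood cell-derived vesicles and protein complexes.

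The mature sequences are shown because the members fall into families that differ by a few bases and because the seeds set which members can share targets. They are RefSeq sequences of the GRCm38.p6 build, written 5′ to 3′ with the seed in capitals, and 7 of 7 members matched.
miR-17-5p: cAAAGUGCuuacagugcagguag
miR-20a-5p: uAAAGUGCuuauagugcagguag
miR-18a-5p: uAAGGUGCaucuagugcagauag
miR-19a-3p: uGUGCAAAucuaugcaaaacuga
miR-19b-3p: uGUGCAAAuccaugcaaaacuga
miR-92a-3p: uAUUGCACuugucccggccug
miR-17-3p: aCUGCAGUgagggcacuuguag
The 7 members carry 5 seeds. Positions are counted from 1 at the 5′ end of the miRNA named first. miR-17-5p and miR-20a-5p share a seed and differ at C1U and C12U, and miR-19a-3p and miR-19b-3p share a seed and differ at U11C alone. The seed of miR-18a-5p differs from that of miR-17-5p at A4G.

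The 6 hairpins lie on the plus strand of chromosome 14 (GRCm38.p6) within 836 bases, from Mir17 at chr14:115043671-115043754 to Mir92-1 at chr14:115044427-115044506. Between them, in order, lie Mir18, Mir19a, Mir20a and Mir19b-1, starting 180, 329, 486 and 634 bases after the start of Mir17. RefSeq places the long noncoding host gene Mir17hg at chr14:115044390-115046728, which contains 1 of the 6 hairpins, Mir92-1. Mature miR-17-5p maps to chr14:115043684-115043706 and miR-17-3p, from the other arm of the same hairpin, to chr14:115043721-115043742. miR-18a-5p maps to chr14:115043867-115043889, miR-19a-3p to chr14:115044048-115044070 and miR-20a-5p to chr14:115044183-115044205. miR-19b-3p (chr14:115044358-115044380) and miR-92a-3p (chr14:115044476-115044496) are also encoded on the minus strand of the X chromosome, at chrX:52741991-52742013 and chrX:52741854-52741874. For these 2 members the array signal does not tell the 2 hairpins apart.

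All 8 arrays lay on 1 slide with 1 scan time. IMB pool 1, DOX pools 1 and 2 and CTRL pool 1 lay in the slide's row 1, and the remaining 4 in row 2. The 75th percentile of the signal over probes detected on every array, used for scaling, was 196, 425 and 320 in the IMB pools, 213, 249 and 267 in the DOX pools, and 300 and 349 in the CTRL pools. Of the mouse miRNAs, 294 entered the tests. Precision is limited by the number of arrays.

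Each member had 2 probes of 15 spots. The scanner software called all 7 detected on all 8 arrays. By a stricter rule, that over 50% of the spots of at least 1 probe lie well above background, 6 of 7 were detected on all 8 arrays. The exception was miR-17-3p, the strand opposite miR-17-5p. It was detected in 1 of 3 IMB pools (pool 2), in 0 of 3 DOX pools and in 2 of 2 CTRL pools. The opposite strands of the other 5 hairpins (miR-18a-3p, miR-19a-5p, miR-20a-3p, miR-19b-1-5p and miR-92a-1-5p) were detected on 0 of 8 arrays. No spot was saturated, and 26 of 1680 member spots (1.55%) were set aside as outliers.

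Before any scaling, 4 members lay far above background on every array. The scanner's total signal of miR-92a-3p came to 360, 628 and 293 in the IMB pools, 262, 273 and 244 in the DOX pools, and 454 and 517 in the CTRL pools. That of miR-20a-5p was 122, 278 and 133 in the IMB pools, 88.4, 106 and 106 in the DOX pools, and 187 and 224 in the CTRL pools. IMB pool 2 and CTRL pool 2 were the highest pools for both. The total of miR-19b-3p came to 234, 403 and 243 in the IMB pools, 180, 230 and 268 in the DOX pools, and 316 and 492 in the CTRL pools. Its relative miR-19a-3p had totals of 67.2, 129 and 74.8 in the IMB pools, 48.8, 61.8 and 72.2 in the DOX pools, and 102 and 140 in the CTRL pools. For all of these 4 members, the CTRL pools lay above the DOX pools, and the IMB pools overlapped the CTRL pools. The share of all tested miRNAs in this order before scaling was not counted. In the unscaled processed signal, the median DOX minus CTRL difference over all tested miRNAs was -0.32 (log2).

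The other 3 members lay near background. The total of miR-18a-5p was 8.63, 18.6 and 10.8 in the IMB pools, 7.37, 9.83 and 11.0 in the DOX pools, and 16.99 and 22.3 in the CTRL pools. That of miR-17-5p was 9.31, 21.6 and 7.26 in the IMB pools, 4.94, 6.02 and 6.04 in the DOX pools, and 8.04 and 15.9 in the CTRL pools. Again IMB pool 2 and CTRL pool 2 stood high. miR-17-3p had totals of 2.71, 12.6 and 3.75 in the IMB pools, 2.76, 3.11 and 3.24 in the DOX pools, and 4.35 and 6.43 in the CTRL pools.

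Some features of these totals moved with single arrays. The total was 0.212 times the processed signal on 6 arrays, but 0.271 times on IMB pool 2 and 0.277 times on CTRL pool 2. The file headers give an effective spot size fraction of 0.6 for the 6 arrays, 0.768 for IMB pool 2 and 0.784 for CTRL pool 2. Totals on these 2 arrays were thus 28.0% and 30.6% higher for the same processed signal. For miR-17-5p the total summed 2 probes on IMB pools 1 and 2 and on CTRL pool 2, and 1 probe on the other 5 arrays. For miR-17-3p it summed 2 probes on IMB pool 2 alone, and for the other 5 members 2 probes on every array. The processed signal per probe, which carries neither difference, was therefore used below. It was scaled to the 75th percentile, averaged over the 2 probes, floored at 21.1 and put on the log2 scale, where the floor is 4.40.

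**Figure D1:**
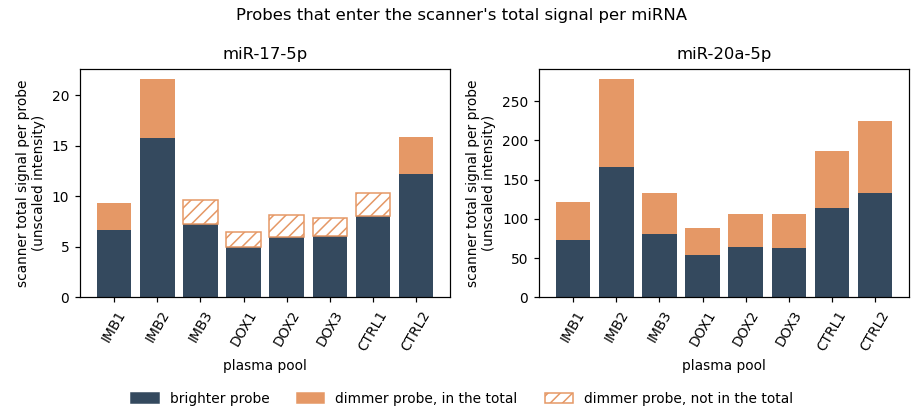
Scanner total signal (vertical axis, unscaled intensity) of the 2 probes of miR-17-5p and of miR-20a-5p in each plasma pool (horizontal axis), stacked. Hatched parts were left out of the scanner's total per miRNA: for miR-17-5p the total holds 2 probes on IMB1, IMB2 and CTRL2 and 1 probe on the other 5 arrays, and for miR-20a-5p it holds 2 on every array.

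The processed signal of the brighter miR-20a-5p probe was 346, 613 and 382 in the IMB pools, 252, 301 and 297 in the DOX pools, and 537 and 482 in the CTRL pools, before scaling. Similarly, the brighter miR-92a-3p probe gave 1228, 1688 and 1009 in the IMB pools, 897, 935 and 854 in the DOX pools, and 1560 and 1357 in the CTRL pools. All 3 DOX pools lay below all other pools for both probes. Without scaling, the median log2 difference over all tested miRNAs was -0.32 for DOX minus CTRL and 0.23 for IMB minus DOX. The coefficient of variation among the spots of a probe was 1.45% to 10.7% for miR-19a-3p, miR-19b-3p, miR-20a-5p and miR-92a-3p, and 8.07% to 65.1% for miR-17-5p, miR-17-3p and miR-18a-5p.

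After scaling, no member differed between DOX and CTRL past the threshold, although 6 of 7 lay lower on average in DOX plasma. The count past the threshold was 0 of 7 (limma, Benjamini-Hochberg adjusted p under 0.05), against 0.340% of all tested miRNAs (1 of 294). At an unadjusted p under 0.05 it was 1 of 7, miR-18a-5p, against 8.50%. With the row of the slide as a block it was 2 of 7, miR-18a-5p and miR-20a-5p, against 12.2%. Every DOX pool lay below both CTRL pools for 5 of 7 members (miR-17-5p, miR-18a-5p, miR-19a-3p, miR-19b-3p and miR-20a-5p), against 9.86% of the tested miRNAs lower without overlap. It lay above both for 0 of 7, against 18.7%. The median difference was -0.29 (log2) over the 7 members and 0 over all tested miRNAs, of which 40.8% had a difference below 0. The 7 include miR-17-3p, which was at the floor throughout and so had a difference of 0. Over the 6 members detected on all 8 arrays the median was -0.33. The members' values varied together across pools, so the members are not separate observations of the groups. The red cell index described further on was 2.85 ± 0.26 (SD, n = 3) in DOX and 3.51 ± 0.47 (SD, n = 2) in CTRL, and its part in these values was not tested. In plasma, fewer cells of a type and less RNA per cell cannot be told apart.

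miR-20a-5p, whose seed is that of miR-17-5p, read 8.70, 8.41 and 8.11 (log2) in the IMB pools, 8.12, 8.15 and 8.06 in the DOX pools, and 8.70 and 8.36 in the CTRL pools. Its DOX pools lay closely together and below both CTRL pools, while IMB pool 3 lay among them. The level averaged 8.41 ± 0.29 in IMB, 8.11 ± 0.05 in DOX (SD, n = 3 each) and 8.53 ± 0.24 in CTRL (SD, n = 2). DOX minus CTRL was -0.42 (SE 0.19; 95% interval -0.89 to 0.04; limma adjusted p = 0.587), a fold of 0.746. Its probes gave -0.41 and -0.43. Within row 1 of the slide the difference was -0.57 and within row 2 it was -0.30. With the row as a block it was -0.47 (SE 0.13; limma unadjusted p = 0.018, adjusted p = 0.285).

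miR-18a-5p, whose seed is 1 base away from that of miR-17-5p, was 4.88, 4.51 and 4.49 in the IMB pools, 4.53, 4.72 and 4.79 in the DOX pools, and 5.24 and 5.03 in the CTRL pools. All treated pools lay below both CTRL pools, and all values lay within 1 log2 unit of the floor. It averaged 4.63 ± 0.22 in IMB, 4.68 ± 0.13 in DOX (SD, n = 3 each) and 5.13 ± 0.15 in CTRL (SD, n = 2). DOX minus CTRL was -0.45 (SE 0.15; 95% interval -0.83 to -0.07; limma unadjusted p = 0.027, adjusted p = 0.478). With normexp background correction it was 0.06, and that of miR-17-5p, -0.12 here, was 0.12. This correction moved the median of all tested miRNAs by 0.11. With any 1 pool left out, DOX minus CTRL stayed below 0 for the 6 members with a measured level, at -0.56 to -0.34 for miR-18a-5p and -0.59 to -0.25 for miR-20a-5p.

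The miR-19 pair, which shares its seed, was well above background on every array. miR-19a-3p read 7.84, 7.31 and 7.29 in the IMB pools, 7.26, 7.38 and 7.50 in the DOX pools, and 7.82 and 7.68 in the CTRL pools. miR-19b-3p read 9.64, 8.95 and 8.98 in the IMB pools, 9.14, 9.27 and 9.39 in the DOX pools, and 9.46 and 9.49 in the CTRL pools. For both, the DOX pools lay below the CTRL pools and IMB pool 1 lay apart from the other IMB pools. miR-19a-3p averaged 7.48 ± 0.31 in IMB, 7.38 ± 0.12 in DOX (SD, n = 3 each) and 7.75 ± 0.10 in CTRL (SD, n = 2). miR-19b-3p averaged 9.19 ± 0.39 in IMB, 9.27 ± 0.12 in DOX (SD, n = 3 each) and 9.48 ± 0.03 in CTRL (SD, n = 2). DOX minus CTRL was -0.37 (SE 0.19; limma adjusted p = 0.698) for miR-19a-3p and -0.21 (SE 0.22; limma adjusted p = 0.926) for miR-19b-3p.

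miR-92a-3p, the most 3′ member and known for repressing integrin genes in endothelium, read 10.26, 9.59 and 9.25 in the IMB pools, 9.69, 9.52 and 9.26 in the DOX pools, and 9.98 and 9.56 in the CTRL pools, so the 3 groups overlapped. In each group its row 1 pools exceeded its row 2 pools, by 0.84 in IMB, 0.34 in DOX and 0.42 in CTRL. It averaged 9.70 ± 0.51 in IMB, 9.49 ± 0.22 in DOX (SD, n = 3 each) and 9.77 ± 0.29 in CTRL (SD, n = 2). DOX minus CTRL was -0.29 (SE 0.32; limma adjusted p = 0.926), and -0.38 within row 1 and -0.31 within row 2. With the row as a block it was -0.38 (SE 0.17; limma adjusted p = 0.479).

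miR-17-5p was 4.99, 4.73 and 4.40 in the IMB pools, 4.40, 4.45 and 4.40 in the DOX pools, and 4.53 and 4.54 in the CTRL pools. IMB pool 3 and DOX pools 1 and 3 were at the floor, so its averages, 4.70 ± 0.30 in IMB, 4.41 ± 0.03 in DOX (SD, n = 3 each) and 4.54 ± 0.01 in CTRL (SD, n = 2), depend on it. DOX minus CTRL was -0.12 (SE 0.16; limma adjusted p = 0.955). miR-17-3p was at the floor on all 8 arrays after scaling, so its level has no order among the pools and no fold is given, although it entered the tests through its detection in both CTRL pools. In the order of the group means, CTRL was highest for miR-18a-5p, miR-19a-3p, miR-19b-3p, miR-20a-5p and miR-92a-3p. IMB was highest for miR-17-5p.

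**Figure D2:**
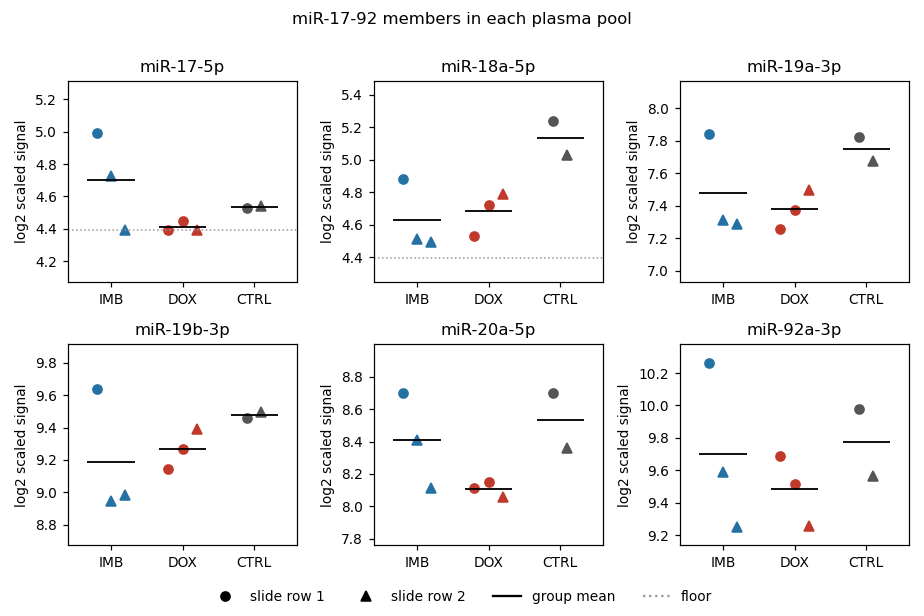
Log2 scaled signal (vertical axis) of the 6 members with a measured level, by group (horizontal axis), with 1 point per plasma pool, circles for row 1 and triangles for row 2 of the slide, a line at each group mean and a dotted line at the floor of 4.40. For miR-20a-5p the DOX pools sit between 8.06 and 8.15 below the CTRL pools at 8.70 and 8.36, and IMB pool 1 is the highest IMB point in every panel.

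Imatinib pools did not differ from CTRL pools past the threshold for any member, and miR-18a-5p was the member that lay farthest from CTRL. The count was 0 of 7 (limma adjusted p under 0.05), against 1.02% of all tested miRNAs (3 of 294), and 1 of 7, miR-18a-5p, at an unadjusted p under 0.05, against 7.82%. The IMB pools lay wholly below the CTRL pools for 1 of 7 members, miR-18a-5p, against 6.80% of the tested miRNAs. Its IMB minus CTRL difference was -0.51 (SE 0.15; 95% interval -0.89 to -0.13; limma unadjusted p = 0.017, adjusted p = 0.321), with -0.36 in row 1 and -0.53 in row 2. With any 1 pool left out it was -0.63 to -0.40. Over all the alternatives run it ran up to -0.02, so it depends on the processing. The differences were -0.27 (SE 0.19) for miR-19a-3p, -0.29 (SE 0.22) for miR-19b-3p, -0.12 (SE 0.19) for miR-20a-5p and -0.07 (SE 0.32) for miR-92a-3p. That of miR-17-5p was 0.17 (SE 0.16). The limma adjusted p-values of these 5 members were 0.760 to 1.0. The median was -0.12 over the 7 members, -0.20 over the 6 detected on all 8 arrays and 0.01 over all tested miRNAs.

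IMB pool 1 stood apart from the other IMB pools. After scaling it was the highest IMB pool for 6 of 6 members with a measured level, and it was also the array with the lowest 75th percentile before scaling. Before scaling, IMB pool 2 was the highest IMB pool for the brighter probe of each of these members. Without IMB pool 1, IMB minus CTRL was -0.45 for miR-19a-3p, -0.51 for miR-19b-3p and -0.35 for miR-92a-3p, and 0 of 7 members passed. Without that pool the number of all tested miRNAs past the threshold was 12 in place of 3. For miR-92a-3p, IMB minus CTRL was 0.15 without IMB pool 3, 0.14 without CTRL pool 1 and 0.02 with the row of the slide as a block. For miR-20a-5p it was 0.02 without IMB pool 3 and 0.05 without CTRL pool 1. The part of array brightness in these values was not tested.

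Between the drugs, the IMB and DOX pools overlapped for every member, against 6.80% of the tested miRNAs wholly higher in IMB and 8.16% wholly lower. The count past the threshold was 0 of 7 (limma adjusted p under 0.05), against 1.02% of all tested miRNAs, and 0 of 7 at an unadjusted p under 0.05, against 10.9%. The largest differences were those of miR-20a-5p, 0.30 for IMB minus DOX (SE 0.17; 95% interval -0.11 to 0.72; limma adjusted p = 0.575), and of miR-17-5p, 0.29 (SE 0.15; limma adjusted p = 0.495). With the row as a block the difference of miR-20a-5p was 0.39 (SE 0.12; limma unadjusted p = 0.025, adjusted p = 0.256), so the unadjusted count was then 1 of 7, against 12.2%. miR-92a-3p differed by 0.22 (SE 0.29), miR-19a-3p by 0.10 (SE 0.17), miR-18a-5p by -0.05 (SE 0.14) and miR-19b-3p by -0.08 (SE 0.20). Without IMB pool 1 the differences of miR-92a-3p and miR-19a-3p were -0.06 and -0.08. The 95% intervals reached furthest for miR-92a-3p, from -0.51 to 0.94.

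The DOX and IMB comparisons with CTRL share the same 2 CTRL pools. For miR-18a-5p they gave -0.45 for DOX and -0.51 for IMB, and for miR-20a-5p -0.42 for DOX and -0.12 for IMB.

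**Figure D3:**
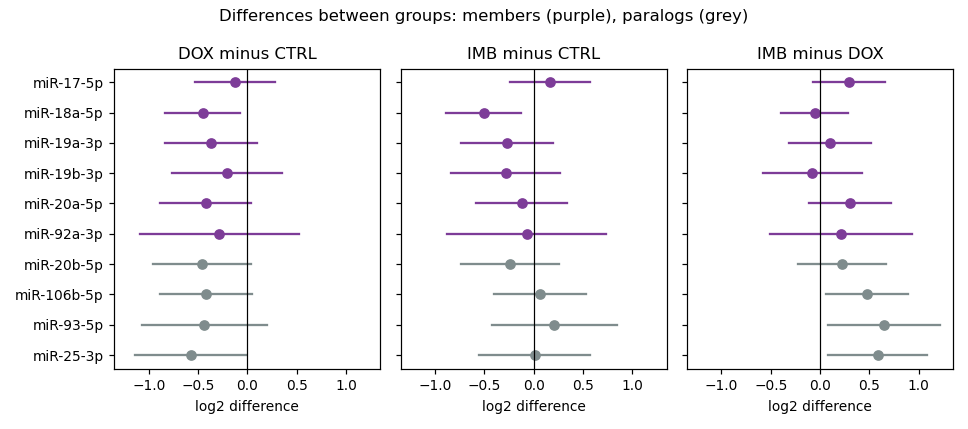
Log2 difference (horizontal axis) with its 95% interval from limma for 6 members (purple) and 4 paralogs (grey), in 3 comparisons. The interval of miR-18a-5p lies below 0 in DOX minus CTRL (-0.83 to -0.07) and in IMB minus CTRL (-0.89 to -0.13), and the other member intervals cross 0 in all 3 panels.

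Ratios within an array show whether members of the shared transcript differed between groups by unequal amounts. Scaling cancels in them except through the floor, which was set after scaling and which miR-17-5p reached in IMB pool 3 and DOX pools 1 and 3. The log2 ratio of miR-18a-5p to miR-17-5p was -0.11, -0.21 and 0.09 in the IMB pools, 0.14, 0.27 and 0.39 in the DOX pools, and 0.71 and 0.49 in the CTRL pools. In these values no groups overlapped, with CTRL highest and IMB lowest. IMB minus CTRL was -0.68, DOX minus CTRL was -0.33 and IMB minus DOX was -0.34, each with an exact 2-sided permutation p = 0.1, the smallest these numbers of pools allow (0.188 after adjustment over 15 ratio tests). For DOX minus CTRL this ratio gave -0.066 with the scanner's total signal (exact permutation p = 0.9), -0.063 with normexp (exact permutation p = 0.6) and -0.21 with the brightest probe (exact permutation p = 0.3). The ratio of miR-20a-5p to miR-17-5p was 3.71, 3.69 and 3.72 in the IMB pools, 3.72, 3.70 and 3.66 in the DOX pools, and 4.17 and 3.82 in the CTRL pools. Of the 6 ratios in treated pools, 3 are set by the floor. DOX minus CTRL of this ratio was -0.30, and -0.036 with the scanner's total signal. With the values of the authors' deposited table it was 0.0083. All 15 tests had an exact permutation p of 0.1 or more, 0.1 being the smallest possible.

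The paralogous clusters share these seeds and give a comparison for each family. The miR-106b-25 cluster lies on chromosome 5 inside Mcm7, the gene of a replication licensing factor, and 3 of its 6 mature strands were detected on all 8 arrays. The miR-106a-363 cluster lies on the X chromosome, and 1 of 9 strands on the array, miR-20b-5p, was detected. miR-106a-5p was not analysed here. The 4 detected paralogs are shown to set their seeds and bodies against those of the members.
miR-20b-5p: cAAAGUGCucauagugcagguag
miR-106b-5p: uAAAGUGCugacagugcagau
miR-93-5p: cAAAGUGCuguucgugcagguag
miR-25-3p: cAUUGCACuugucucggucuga
miR-20a-5p and miR-20b-5p differ at U1C and U10C, and miR-92a-3p and miR-25-3p at U1C, C14U and C18U. Whether the probes tell such relatives apart was not tested. The log2 ratio of the signals of miR-20a-5p and miR-20b-5p stayed between 0.65 and 0.86 over the 8 arrays.

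The 4 paralogs also lay lower in DOX than in CTRL on average, and 0 of 4 passed the threshold (limma). DOX minus CTRL was -0.46 for miR-20b-5p, -0.42 for miR-106b-5p, -0.44 for miR-93-5p and -0.57 for miR-25-3p, with limma adjusted p-values from 0.578 to 0.767. Every DOX pool lay below both CTRL pools for all but miR-93-5p, against 9.86% of the tested miRNAs. With the row as a block, their limma unadjusted p was 0.019 to 0.042 (adjusted p 0.285 to 0.340). Of all tested miRNAs, 12.2% had an unadjusted p under 0.05 in that fit. miR-25-3p, which shares the miR-92a seed, read 9.52, 9.49 and 9.05 in the IMB pools, 8.99, 8.70 and 8.62 in the DOX pools, and 9.60 and 9.09 in the CTRL pools. miR-106b-5p was 9.34, 9.13 and 8.82 in the IMB pools, 8.74, 8.54 and 8.57 in the DOX pools, and 9.23 and 8.85 in the CTRL pools. For both, and for miR-93-5p, every IMB pool lay above every DOX pool, against 6.80% of the tested miRNAs. Of the red cell list, miR-451a, miR-144-3p and miR-16-5p also showed this, and miR-486a-5p did not. No member of the cluster on chromosome 14 showed it after scaling. Before scaling, the brighter probes of miR-17-5p, miR-20a-5p and miR-92a-3p did, and those of the other members did not. The median IMB minus DOX difference over all tested miRNAs was 0.23 without scaling. IMB minus DOX was 0.48 for miR-106b-5p, 0.65 for miR-93-5p and 0.58 for miR-25-3p, each with a limma adjusted p = 0.364. That of miR-20b-5p was 0.22 (limma adjusted p = 0.737).

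Ratios between members and seed-sharing paralogs were added after seeing the data. The log2 ratio of miR-92a-3p to miR-25-3p stood at 0.74, 0.09 and 0.20 in the IMB pools, 0.70, 0.81 and 0.63 in the DOX pools, and 0.38 and 0.47 in the CTRL pools. All DOX pools lay above the CTRL pools, by 0.29, while the IMB pools spanned the range of both. The ratio of miR-20a-5p to miR-106b-5p was -0.65, -0.72 and -0.70 in the IMB pools, -0.62, -0.40 and -0.52 in the DOX pools, and -0.53 and -0.49 in the CTRL pools. Here the IMB pools lay below all others, with IMB minus CTRL and IMB minus DOX both at -0.18. The ratio of miR-20a-5p to miR-93-5p gave -0.33 for IMB minus CTRL and -0.35 for IMB minus DOX, and the groups did not overlap in either. Each of these 5 differences had an exact permutation p = 0.1, the smallest possible, and 0.18 after adjustment over 9 tests.

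Marker levels of blood cells and tissues are given as sums of scaled signal over the listed miRNAs, and the sums were not tested between groups. The red cell index, the difference in log2 signal between miR-451a, which red cells hold in plenty, and miR-23a-3p, was 4.09 ± 0.32 in IMB, 2.85 ± 0.26 in DOX (SD, n = 3 each) and 3.51 ± 0.47 in CTRL (SD, n = 2). Of 6 listed red cell miRNAs, 4 were detected on all 8 arrays and miR-144-5p on none. Their summed signal ranged over 31843 to 40248 in IMB, 17947 to 27027 in DOX and 22589 to 37620 in CTRL. DOX minus CTRL was -0.47 for miR-451a, -0.38 for miR-144-3p, -0.60 for miR-486a-5p and -0.44 for miR-16-5p (limma adjusted p 0.199 to 0.850). The platelet list (3 of 5 detected on all arrays, miR-191-5p on none) summed to 1823 to 2460 in IMB, 2718 to 2893 in DOX and 2133 to 2620 in CTRL. The myeloid list (3 of 4, miR-223-5p on none) summed to 1184 to 1598 in IMB, 1752 to 2012 in DOX and 1529 to 1931 in CTRL. miR-223-3p is on both the platelet and the myeloid list, and its DOX minus CTRL difference was 0.21, against -0.35 for miR-142a-3p and -0.27 for miR-142a-5p (limma adjusted p 0.913 to 0.955). The lymphocyte list (2 of 4) summed to 305 to 701 in IMB, 365 to 466 in DOX and 482 to 604 in CTRL. The endothelial list (2 of 2) summed to 540 to 1059 in IMB, 1013 to 1138 in DOX and 760 to 803 in CTRL. miR-126a-3p is on both the endothelial and the platelet list, so these 2 sums are not separate. Its DOX minus CTRL difference was 0.44, against 0.35 for miR-126a-5p and -0.14 for miR-199a-3p of the platelet list. The liver list (2 of 2) summed to 1093 to 3061 in IMB, 1820 to 2536 in DOX and 1220 to 1511 in CTRL, and the muscle list (2 of 3) to 96.5 to 1112 in IMB, 107 to 308 in DOX and 49.1 to 69.9 in CTRL. The part of these cells and tissues in the members' values was not tested.

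The 4 red cell miRNAs detected on all 8 arrays are given for every pool. miR-451a was 15.13, 15.15 and 14.82 in the IMB pools, 14.56, 14.05 and 13.96 in the DOX pools, and 15.04 and 14.29 in the CTRL pools. miR-16-5p read 11.31, 11.15 and 10.80 in the IMB pools, 10.78, 10.51 and 10.45 in the DOX pools, and 11.32 and 10.73 in the CTRL pools. miR-486a-5p came to 10.60, 10.52 and 9.86 in the IMB pools, 9.97, 9.26 and 8.87 in the DOX pools, and 10.37 and 9.58 in the CTRL pools. IMB pool 3 was the lowest IMB pool for these 3 miRNAs, as it was for miR-17-5p, miR-18a-5p, miR-19a-3p, miR-20a-5p and miR-92a-3p. It was not the lowest for miR-144-3p, whose level was 7.78 in pool 2, against 7.86 in pool 1 and 7.82 in pool 3. Pool 2 was also the lowest IMB pool for miR-19b-3p. For miR-144-3p, an erythroid miRNA, IMB minus CTRL was 0.82 (SE 0.07; limma adjusted p = 0.0077). That call was lost with no scaling and without IMB pool 2 or 3, among other settings, and the adjusted p ran from 0.0055 to 1.0 over the alternatives.

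**Figure D4:**
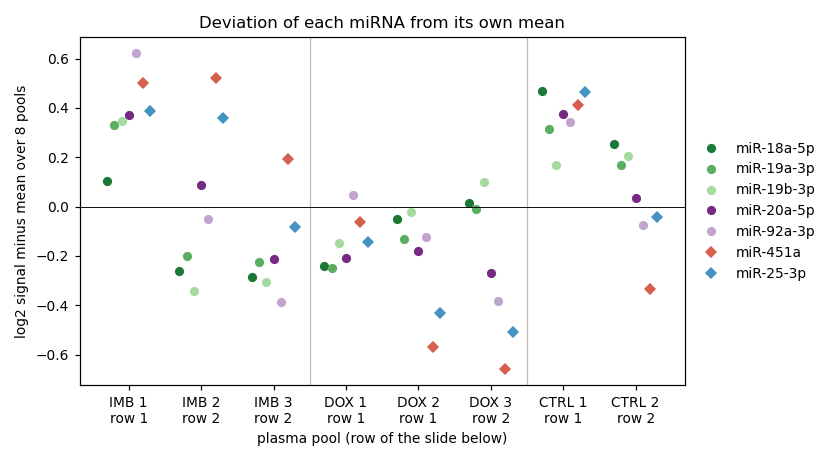
Deviation of each miRNA's log2 signal from its own mean over the 8 pools (vertical axis) in each plasma pool (horizontal axis), for 5 members (circles) and for miR-451a and miR-25-3p (diamonds). In IMB pool 2, miR-451a (15.15), miR-25-3p (9.49) and miR-20a-5p (8.41) lie above their means, while miR-18a-5p (4.51), miR-19a-3p (7.31), miR-19b-3p (8.95) and miR-92a-3p (9.59) lie below theirs.

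Across the 8 arrays the members' values correlated by amounts that differed between pairs, as a description of pools that share groups, slide rows and scaling. Pearson's r was 0.90 between miR-18a-5p and miR-19a-3p and between miR-19a-3p and miR-19b-3p, and 0.87 between miR-20a-5p and miR-92a-3p. It was lowest, 0.18, between miR-18a-5p and miR-17-5p. miR-17-5p was at the floor in IMB pool 3 and DOX pools 1 and 3, so its correlations depend on the floor. The 6 members were averaged into a profile after centring each on its own mean. Its group means were 0.0031 ± 0.33 in IMB, -0.13 ± 0.03 in DOX (SD, n = 3 each) and 0.18 ± 0.13 in CTRL (SD, n = 2). Among 283 tested miRNAs outside the cluster and its paralogs, those most like this profile over the 8 arrays were miR-425-5p (r = 0.92), miR-30e-5p (0.88), miR-140-3p (0.86), miR-342-3p of the lymphocyte list (0.86) and miR-6418-5p (0.85). The median r over the 283 was -0.04.

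miR-425-5p was 6.97, 6.45 and 6.39 in the IMB pools, 6.65, 6.54 and 6.59 in the DOX pools, and 6.93 and 6.90 in the CTRL pools. Its DOX pools lay below its CTRL pools and its IMB pool 1 stood highest, as for miR-19a-3p. The profile's r with the red cell index was 0.25, and with the log2 of the 75th percentile before scaling it was -0.27, over the same 8 arrays.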

How the data were processed

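Plasma miRNA was measured on 8 one-colour arrays. Spot intensity, linear, was deposited as scanner output of Agilent Feature Extraction, version 11.5.1.1 in the submitters' processing notes. According to the headers, the authors' processed intensity had its background subtracted and was left unscaled between arrays (per the file headers). A table of log2 values from the authors, also deposited, has 1902 rows. The sources used here do not give how it was made. Among detected miRNAs it had the rank order of the scanner's total signal (Spearman rho 1 on all 8 arrays), and its highest value was 13.5 on every array. Its column medians were -3.23, -3.32 and -3.29 for IMB, -3.20, -3.25 and -3.23 for DOX, and -3.28 and -3.32 for CTRL, so the treatment of low values is unknown. It was used as an alternative.

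The mean processed signal of each probe left out spots marked as outliers. A probe with over 50% of its remaining spots well above background counted as detected, as did a miRNA with at least 1 such probe. Arrays were scaled to the 75th percentile of the 454 probes detected on all 8 arrays. The floor was set at the 1st percentile of detected probes, taking the median of the arrays. Tests covered 294 mouse miRNAs that every array of some group detected, with 2-sided limma (version 3.58.1, R 4.3.3; lmFit, eBayes; residual degrees of freedom 5, prior 0.605) over all 8 arrays and Benjamini-Hochberg adjustment within a comparison. A common spread was estimated from all groups, as CTRL has 2 pools. Ratios were compared by exact 2-sided permutation. The limma fit was tested on simulated arrays, with planted changes larger than any difference reported here for a member. The members and the lists were chosen with earlier results of these data known. Named were all members, the opposite strands of their hairpins, the paralogous clusters, fixed cell markers and the 5 most alike miRNAs. Alternatives changed the signal or its background (normexp with offset 50 on the median spot signal), the scaling, the filter, the floor, how probes were combined, the variance trend or the blocks, or took the authors' table, or dropped 1 array at a time.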

Additional observations from a re-analysis of the deposited data

How the results depend on the processing

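The count of members past the threshold was 0 of 7 in each comparison under all alternatives run. The median difference of the 7 members for DOX minus CTRL, -0.29, was -0.44 with the scanner's total signal, -0.71 with no scaling and -0.46 with scaling to the references miR-24-3p and miR-23a-3p, and -0.44 to -0.23 when 1 pool was left out (lowest without CTRL pool 2). For IMB minus DOX it was 0.39 with no scaling and 0.48 with scaling to those references. No scaling moved the median of all tested miRNAs by -0.32 for DOX minus CTRL and 0.23 for IMB minus DOX, and reference scaling moved it by 0.18 for IMB minus CTRL and 0.30 for IMB minus DOX. The median for IMB minus CTRL, -0.12, was 0.022 with reference scaling and ran from -0.35 to 0 with a pool left out. The upper end of 0 is the value of miR-17-3p, whose difference the floor fixes at 0 there.

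The number of all tested miRNAs past the threshold for DOX minus CTRL, 1, was 2 with the percentile over all probes, with a floor 4 times lower and in the authors' table. It was 0 with no filter, with only the 2 groups compared and with the replicate block, and 0 to 2 with a pool left out (0 without CTRL pool 1, 2 without IMB pool 1 or CTRL pool 2). For IMB minus CTRL it was 3. It was 1 with the scanner's total signal, median scaling, the lower floor and the authors' table, and 0 with no scaling, reference scaling, no filter and the percentile over all probes. With a pool left out it was 0 to 12 (12 without IMB pool 1, 0 without IMB pool 2 or 3, 1 without either CTRL pool). For IMB minus DOX it was 3, and 7 with the total signal, 5 with the lower floor and 3 to 20 with a pool left out (20 without IMB pool 1).

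Some differences changed sign, none of them past the threshold, and the cause was not tested. With normexp, DOX minus CTRL was 0.12 for miR-17-5p and 0.060 for miR-18a-5p. With reference scaling, IMB minus CTRL was 0.086 for miR-20a-5p and 0.14 for miR-92a-3p. For miR-92a-3p it was 0.099 with the replicate block, 0.020 with the row block and 0.017 with the row block and the brightest probe. IMB minus DOX of miR-18a-5p was 0.026 with the percentile over all probes, 0.18 with no scaling, 0.31 with reference scaling and 0.011 with the row block and the brightest probe. That of miR-19b-3p was 0.0070, 0.23 and 0.30 under the same 3 scalings. With a pool left out, IMB minus CTRL ran from -0.29 to 0.048 for miR-20a-5p and -0.35 to 0.15 for miR-92a-3p. IMB minus DOX ran from -0.18 to 0.014 for miR-18a-5p, -0.080 to 0.20 for miR-19a-3p, -0.30 to 0.044 for miR-19b-3p and -0.065 to 0.44 for miR-92a-3p.

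Ratios to miR-17-5p for DOX minus CTRL were, with the total signal, 0.015 for miR-19a-3p, 0.18 for miR-19b-3p and 0.10 for miR-92a-3p, and with the authors' values 0.22 for miR-19b-3p and 0.0083 for miR-20a-5p. For IMB minus DOX that of miR-20a-5p was -0.28 with the total signal, -0.012 with the lower floor and -0.19 in the authors' table, and with normexp the ratios were 0.022 for miR-19a-3p and 0.20 for miR-92a-3p. The total sums unequal numbers of miR-17-5p probes across arrays. The ratio of miR-20a-5p to miR-106b-5p for DOX minus CTRL was 0.041 with normexp and 0.069 in the authors' table. With a pool left out, DOX minus CTRL ran from -0.38 to 0.048 for miR-92a-3p to miR-17-5p, -0.062 to 0.051 for miR-20a-5p to miR-106b-5p and -0.076 to 0.14 for miR-20a-5p to miR-93-5p. IMB minus DOX ran from -0.0051 to 0.024 for miR-20a-5p to miR-17-5p and -0.21 to 0.034 for miR-92a-3p to miR-17-5p, and IMB minus CTRL from -0.28 to 0.045 for miR-92a-3p to miR-25-3p.

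The labels number the pools, but deviations from the group means of same-numbered pools correlated at -0.24 to 0.40 over 7 pairs, and not every pool correlated best with its own number, so the numbers were not taken to pair the samples. With the replicate block no member passed. The dim members lie near the floor, so signal over background limits miR-17-5p, miR-17-3p and miR-18a-5p.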
